A study of Mus musculus with 2 samples.

Results

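The let-7 family of microRNAs was read on this platform by 9 guide-strand (5p) probes, found by their exact names among 1900 probes for mouse miRNAs: mmu-let-7a-5p, mmu-let-7b-5p, mmu-let-7c-5p, mmu-let-7d-5p, mmu-let-7e-5p, mmu-let-7f-5p, mmu-let-7g-5p, mmu-let-7i-5p and mmu-miR-98-5p. The species prefix is left out in most of the text. Each was printed as a spot of its own on each of 2 arrays. The control array carried RNA of colonic epithelial cells from C57BL/6 mice, 8 weeks old, labelled "control". The DSS array carried RNA of the same cell type from mice of the same strain and age, whose agent was 2.5% dextran sulfate sodium, taken with the drinking water for 5 days. DSS is a sulfated polysaccharide that damages the colonic lining and is used to set off colitis. Both groups held 1 array (control n = 1, DSS n = 1), so every difference below is a value without a test between conditions, and the number of arrays limits its precision. The sources used here do not say whether several mice were pooled. In RNA from a whole cell preparation, fewer cells of a type and less of an RNA per cell cannot be told apart.

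let-7 miRNAs are cut from hairpin precursors by Drosha and Dicer, loaded into Argonaute, and pair through their seed, the bases near the 5′ end, with sites in target mRNAs. Known targets include Lin28, Hmga2, Ras and Myc transcripts, and the LIN28 proteins in turn block the maturation of let-7 precursors. The family accumulates as cells differentiate, and in the mouse intestine the balance of LIN28 and let-7 is known to bear on the growth of crypts.

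The mature sequences show how alike the probed RNAs are, which matters for any array that must separate them. They were taken from RefSeq (GRCm38.p6) and found for 9 of 9 members. Each is printed 5′ to 3′ with the seed (bases 2 to 8) in capitals.
mmu-let-7a-5p: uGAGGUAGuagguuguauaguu
mmu-let-7b-5p: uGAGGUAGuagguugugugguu
mmu-let-7c-5p: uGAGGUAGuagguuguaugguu
mmu-let-7d-5p: aGAGGUAGuagguugcauaguu
mmu-let-7e-5p: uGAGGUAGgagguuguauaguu
mmu-let-7f-5p: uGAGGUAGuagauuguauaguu
mmu-let-7g-5p: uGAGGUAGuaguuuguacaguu
mmu-let-7i-5p: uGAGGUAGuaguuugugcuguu
mmu-miR-98-5p: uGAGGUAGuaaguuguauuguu

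All 9 guides were 22 bases long and shared the seed GAGGUAG. Counted from 1 at the 5′ end and with the base of let-7a-5p first, let-7c-5p differed from let-7a-5p by A19G, let-7e-5p by U9G and let-7f-5p by G12A. let-7b-5p carried A17G and A19G, let-7d-5p carried U1A and U16C, and miR-98-5p carried G11A and A19U. let-7g-5p had G12U and U18C, and let-7i-5p, the most distant from let-7a-5p, had G12U, A17G, U18C and A19U. Across all 36 pairs the guides differed at 1 to 6 bases (median 3), and none of the 15 substitutions from let-7a-5p lay in the seed. Guanine and cytosine together made up 7 bases in let-7f-5p and miR-98-5p, 10 in let-7b-5p and 8 or 9 in the other members.

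These guides lie in 12 hairpins on 7 chromosomes of GRCm38.p6. let-7a-5p is encoded in Mirlet7a-1 (chr13:48538239-48538260, minus strand) and in Mirlet7a-2 (chr9:41536732-41536753, plus strand). The Mirlet7a-1 hairpin is followed on the minus strand by Mirlet7f-1, 261 bases away (let-7f-5p at chr13:48537889-48537910), and then by Mirlet7d, 1714 bases further (let-7d-5p at chr13:48536078-48536099). Mirlet7c-2 (chr15:85706616-85706637) and Mirlet7b (chr15:85707325-85707346) are 621 bases apart within the interval of the long noncoding gene Lncppara. let-7f-5p is also encoded in Mirlet7f-2 (chrX:151912353-151912374), 785 bases from Mir98 (miR-98-5p at chrX:151913229-151913250), both within the gene Huwe1. let-7c-5p is encoded a further time in Mirlet7c-1 (chr16:77599672-77599693). let-7e-5p (chr17:17830366-17830387) lies within Spaca6, let-7g-5p (chr9:106178846-106178867) within Wdr82, and let-7i-5p (chr10:122985698-122985719, minus strand) within no other gene of the table. The table gives no exons, so exonic and intronic positions were not separated. An array probe for let-7a-5p, let-7c-5p or let-7f-5p reads the product of both of its loci.

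On both arrays 5 of the 9 members lay further above blank spots than the median measured miRNA, and the other 4 lay below that median. Brightness is the median spot intensity on the scanner's linear scale, and blank spots without probe averaged, after trimming, 92.7 with control RNA (SD 3.49) and 121.8 with DSS RNA (SD 4.53). A probe counted as measured above the blank mean plus 2 SD, at 99.6 and 130.9. On the control array 8 of 9 members were measured, against 1070 miRNA probes (56.3%), and on the DSS array 9 of 9, against 1169 (61.6%). Both arrays measured 995 miRNAs. The brightest miRNA probe reached 50221 (control) and 42202 (DSS), while no member passed 256.1. Measured miRNAs lay a median of 44.4 (control) and 31.8 (DSS) above the blank mean.

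mmu-let-7c-5p was the brightest member on the control array, with an intensity of 198.6, and read 242.3 with DSS. mmu-let-7b-5p read 194.4 (control) and 256.1 (DSS), the highest value of the family. mmu-let-7a-5p, encoded at 2 loci, went from 181.8 to 223.7. These 3 probes lay above the blank mean by 89.2 to 106.0 (control) and by 102.0 to 134.3 (DSS). mmu-let-7d-5p, which alone begins with A in place of U, read 171.1 and 236.9. mmu-let-7f-5p read 150.1 and 178.4. These 5 members were also the only ones above every set of negative control spots, taken as mean plus 2 SD, on both arrays (110.5 and 153.6).

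The other members were closer to the blanks. mmu-let-7e-5p read 122.9 (control) and 141.7 (DSS), and mmu-let-7g-5p read 109.0 and 134.1. mmu-let-7i-5p read 100.2 on the control array, 2.17 blank SDs above the blank mean, and 137.8 on the DSS array. mmu-miR-98-5p, an X-linked member of the family under another name, read 95.3 on the control array, below the limit, and 139.9 on the DSS array. On the DSS array the Negative Control 1 spots averaged 137.6, so let-7g-5p lay below that mean and let-7i-5p, miR-98-5p and let-7e-5p within its SD of 8.01 over 16 spots.

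**Figure D1:**
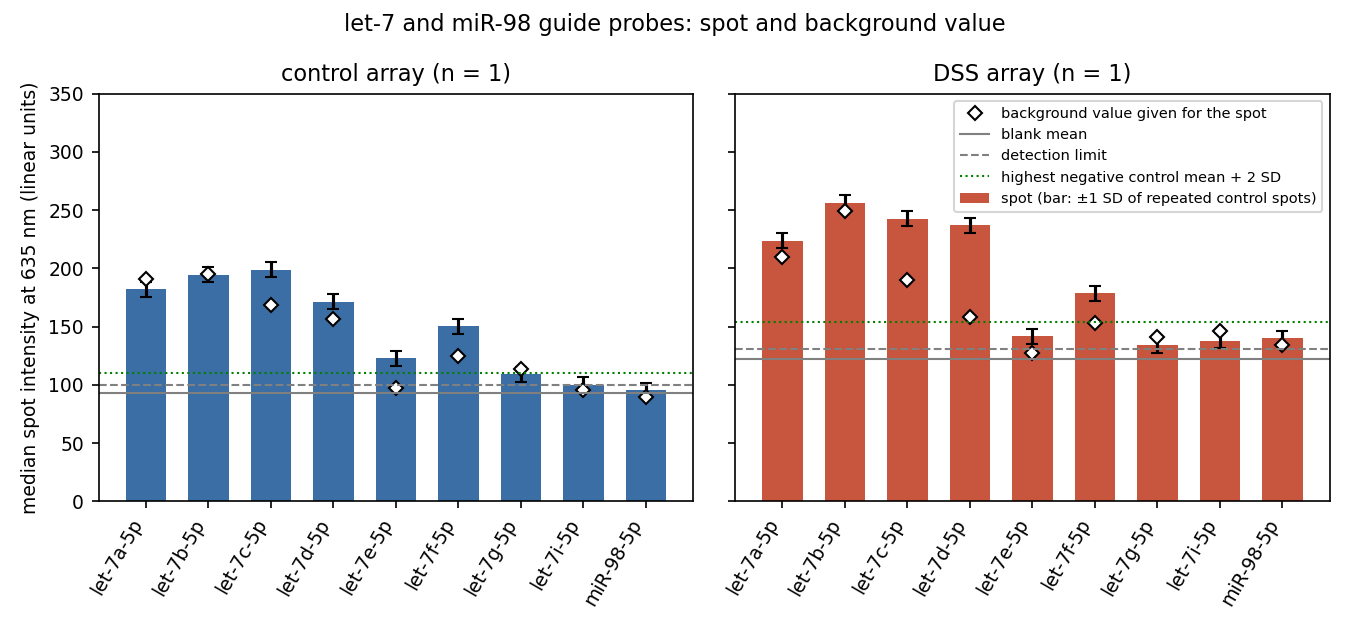
Median spot intensity (linear units) of the 9 guide probes on the control array (left) and the DSS array (right). Bars are single spots with ±1 SD of repeated control spots whose means lay in the brightness range of the family. Diamonds are the background value the files give for the same spot. Lines mark the blank mean, the detection limit and the highest negative control mean plus 2 SD. let-7a-5p, let-7b-5p, let-7c-5p, let-7d-5p and let-7f-5p stand above all 3 lines on both arrays, let-7e-5p does so on the control array alone, and let-7g-5p, let-7i-5p and miR-98-5p do so on neither.

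The order of the members was alike on both arrays, with a Spearman's rho of 0.90 between the arrays over the 9 spots. Brightness of different probes also reflects how well each binds its target and labels, so the order is one of spots and not of RNA amounts. On the control array it ran let-7c-5p, let-7b-5p, let-7a-5p, let-7d-5p, let-7f-5p, let-7e-5p, let-7g-5p, let-7i-5p and miR-98-5p. Repeated control spots whose means lay in the brightness range of the family, 5 sets of 8 or 16 spots, had a pooled SD of 6.47 among control-array spots and 6.45 among DSS-array spots, which gives an SD of 9.15 and 9.13 for the gap between 2 spots. By this measure let-7c-5p and let-7b-5p (gap 4.30), let-7g-5p and let-7i-5p (8.82) and let-7i-5p and miR-98-5p (4.93) were not separated on the control array. On the DSS array let-7b-5p led, then came let-7c-5p and let-7d-5p before let-7a-5p, and the gap between let-7c-5p and let-7d-5p (5.43) was within that SD. The 4 dimmest, let-7e-5p, miR-98-5p, let-7i-5p and let-7g-5p, followed each other at gaps of 1.78, 2.13 and 3.70, all within it.

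Ranks among the 1899 usable miRNA probes place the family in the whole array. let-7c-5p held rank 309 (control) and 214 (DSS), let-7b-5p 312 and 191, let-7a-5p 337 and 246, and let-7d-5p 374 and 226. let-7f-5p moved from rank 446 to 389. let-7e-5p moved the other way, from 631 to 767, as did let-7g-5p, from 842 to 1001. let-7i-5p went from rank 1051 to 862 and miR-98-5p from 1265 to 800, ranks that neighbouring probes share within a few intensity units. A higher place on the DSS array was held by 7 of 9 members, against 49.1% of all 1899 probes. Of the 5 members above the negative controls on both arrays 5 held a higher place, against 54.6% of the 582 probes above them. The moves of let-7i-5p and miR-98-5p start from control spots near or below the detection limit.

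Each shift is a log2 difference, the DSS value less the control value, after normexp background correction with an offset of 50 and quantile normalisation over the miRNA probes. The offset shrinks the differences of dim probes. let-7b-5p had a normalised log2 intensity of 7.21 (control) and 7.87 (DSS), a difference of 0.66 (1.58-fold higher). For let-7d-5p the values were 7.02 and 7.65, a difference of 0.63 (1.54-fold). let-7c-5p followed at 0.47 (1.39-fold) and let-7a-5p at 0.41 (1.33-fold). These 4 brightest members were thus those with the largest differences, all 4 higher with DSS on this scale and all lower once scaled to the spike control spots (−0.61 to −0.82).

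The remaining members differed by less. let-7f-5p was at 0.16, let-7i-5p at 0.12, let-7g-5p at −0.11 and let-7e-5p at −0.15. Repeated control spots with means in the brightness range of the family gave an SD of 0.16 for a log2 difference between the arrays before normalisation. On that same scale, with no scaling between the arrays, let-7d-5p was at 0.36, let-7b-5p at 0.29, let-7i-5p at 0.22, let-7a-5p and let-7c-5p both at 0.14, let-7f-5p at 0.03, let-7g-5p at −0.02 and let-7e-5p at −0.12. There let-7a-5p and let-7c-5p lay within 1 SD of 0, and the median of all 995 miRNAs was −0.06. The SD pools 5 sets of control spots, with log2 SDs of 0.04 to 0.22 (control) and 0.06 to 0.15 (DSS). On the DSS array the brightest set averaged 174.1, below let-7a-5p, let-7b-5p, let-7c-5p, let-7d-5p and let-7f-5p. For these members the SD thus comes from dimmer spots. This spread covers spots within an array and leaves out animals, cell isolations, labelling and hybridisation, so it cannot say which members changed between the conditions. miR-98-5p was measured on the DSS array only, where its normalised value was 1.13-fold the dimmest measured control signal. Its DSS spot lay within the SD of Negative Control 1, and spike control scaling was not applied to this ratio. It thus gives no minimum rise.

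Of the 8 members measured on both arrays, 6 were higher and 2 lower on the DSS array, where 48.5% of all 995 miRNAs were higher, and with spike control scaling 0 of 8 were higher. The median difference was 0.28, against −0.003 over all 995. No member reached 2-fold, against 1.51% of all miRNAs in either direction, and 2 of 8 (let-7b-5p and let-7d-5p) were at least 1.5-fold higher, against 3.22%. Members of a family detect near-identical RNAs and share 2 arrays, so their counts do not add up as independent measurements. The central 95% of all differences ran from −0.76 to 0.65, and let-7b-5p lay just outside it.

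**Figure D2:**
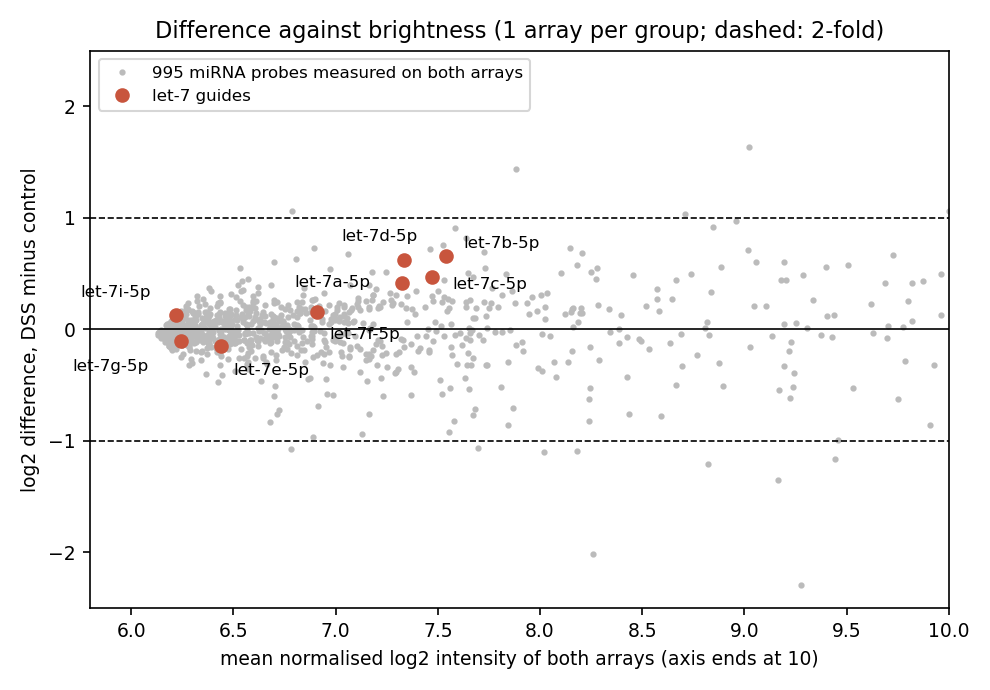
Log2 difference (DSS minus control) against the mean normalised log2 intensity of both arrays for 995 miRNA probes (grey) and the 8 let-7 guides measured on both (red); the axis ends at 10, beyond which 55 brighter probes lie. let-7a-5p to let-7d-5p sit together between 0.41 and 0.66 (all below 0 with spike control scaling), and let-7e-5p, let-7f-5p, let-7g-5p and let-7i-5p lie between −0.15 and 0.16.

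The values in the authors' deposited table carry no offset, and a factor per array given below. They gave differences larger in size for 6 of the 8 members. For let-7e-5p (−0.12, beside −0.15) and let-7g-5p (0.07, beside −0.11) the differences were smaller in size, and let-7g-5p changed sign. There let-7d-5p went from 44.2 to 90.6 (log2 difference 1.04, 2.05-fold) and let-7b-5p from 57.2 to 105.7 (0.89, 1.85-fold). let-7a-5p went from 50.2 to 80.2 (0.68) and let-7c-5p from 59.6 to 94.9 (0.67). Moving both spots against each other by 1 SD of the repeated control spots changed these differences to between 0.84 and 1.24 for let-7d-5p, 0.73 and 1.05 for let-7b-5p, 0.48 and 0.87 for let-7a-5p, and 0.50 and 0.84 for let-7c-5p. These ranges cover the spread between spots alone, and the median of all miRNAs in that table was 0.21 and not 0. let-7f-5p went from 32.3 to 44.5 (0.46, range 0.13 to 0.79). The values of that table carry a factor per array, 0.563 (control) and 0.787 (DSS), which raises every ratio. Without it the ratio of DSS to control intensity above blanks was 0.99 for let-7f-5p and 1.14 for let-7a-5p and let-7c-5p. It was 1.32 for let-7b-5p and 1.47 for let-7d-5p. The ranges above 0 thus rest in part on this scaling, and wholly so for let-7f-5p and, by a narrow margin, for let-7a-5p.

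The numerically largest difference of a member in the authors' deposited table belonged to let-7i-5p, from 4.25 to 12.6 (1.57, 2.96-fold). Its control spot stood 7.56 above the blank mean, close to the control-spot SD of 6.47, and the same movement of the spots gave a range of −0.07 to 4.85. let-7g-5p (9.22 and 9.68, range −1.48 to 1.40) and let-7e-5p (17.0 and 15.7, range −0.96 to 0.64) could not be given a direction. Of the 8 members in the authors' deposited table, 7 were higher with DSS (63.9% of all 995), 5 of 8 at least 1.5-fold (25.7%), and 2 of 8, let-7d-5p and let-7i-5p, at least 2-fold (8.94% higher). The median of the 8 members there was 0.67.

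A direction for the family depends on the scaling. The Spike Control 1 and Spike Control 2 spots were 2.05-fold and 1.88-fold brighter above blanks on the DSS array. Scaled to these spots, all 8 members were lower with DSS, from −0.61 for let-7d-5p to −1.09 for let-7e-5p, with a family median of −0.82 where the median of all miRNAs was −1.02. let-7d-5p and not let-7b-5p had the highest value there, and let-7e-5p the lowest.

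The background value that the files give for each spot was close to the spot itself for most members, and no source used here says what area it covers. It equalled a median of 93.6% of the spot (control) and 93.7% (DSS) over the 9 members, against 88.5% and 82.0% over all measured miRNAs. On the control array it was above the spot for let-7a-5p (190.7), let-7b-5p (195.1) and let-7g-5p (113.3), and on the DSS array for let-7g-5p (140.8) and let-7i-5p (145.9). let-7d-5p on the DSS array had the lowest value in proportion, 66.7% of the spot. Subtracting this value before normexp left let-7d-5p at 0.45, let-7a-5p at 0.13, let-7c-5p at 0.06 and let-7b-5p at 0.03, turned let-7f-5p to −0.10 and let-7i-5p to −0.07, and gave a family median of 0.02.

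**Figure D3:**
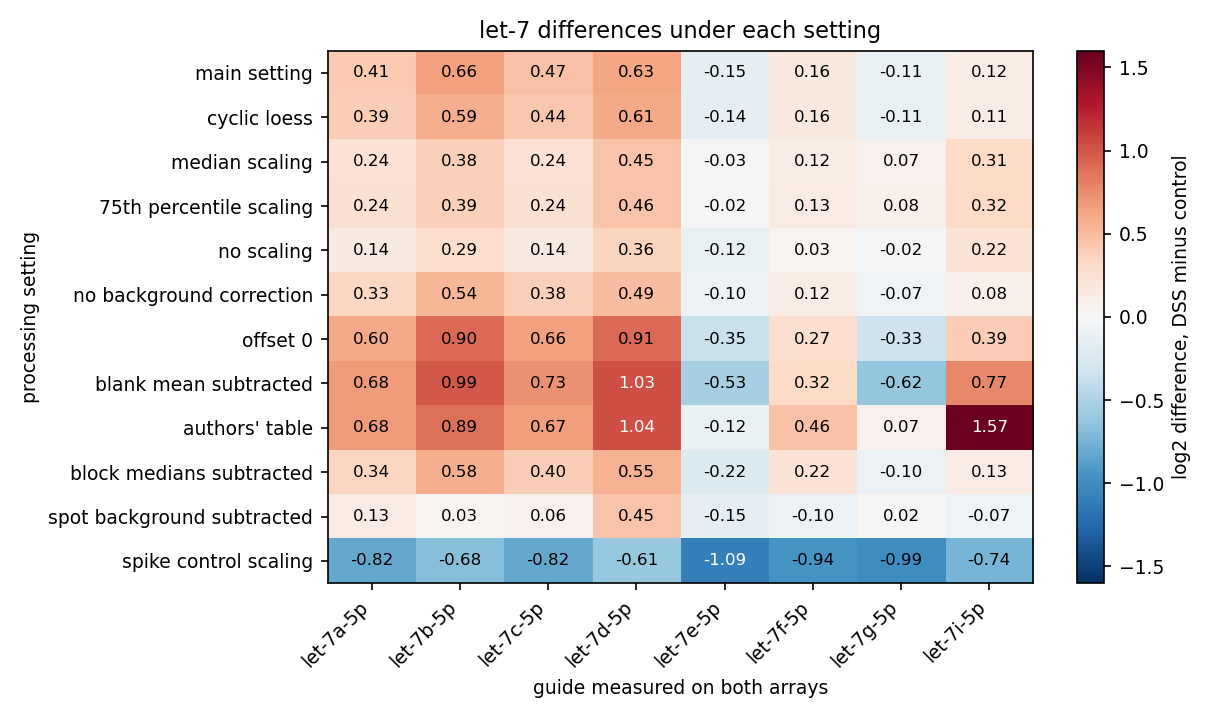
Log2 difference (DSS minus control) of the 8 guides measured on both arrays (columns) under 12 processing settings (rows), with each value printed. let-7d-5p keeps 0.36 or more under each setting except spike control scaling (−0.61), and let-7e-5p, whose DSS spot lay within the SD of Negative Control 1, is below 0 under each of the 12.

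Position on the array was compared as well. let-7c-5p, let-7d-5p and let-7e-5p were printed side by side in block 10, let-7a-5p and let-7b-5p side by side in block 28, and let-7g-5p and let-7i-5p side by side in block 8. The median difference of all measured miRNAs was 0.07 in block 10 (38 probes), 0.07 in block 28 (30 probes) and −0.01 in block 8 (32 probes), within the range of −0.14 to 0.09 over the 32 blocks. After the block median was subtracted, let-7b-5p was at 0.58, let-7d-5p at 0.55, let-7c-5p at 0.40 and let-7a-5p at 0.34, and let-7e-5p, printed next to let-7c-5p in block 10, at −0.22. Of the 3 neighbours in block 10, let-7c-5p and let-7d-5p were thus both higher on this scale and let-7e-5p was lower. The let-7e-5p value rests on a DSS spot within the SD of Negative Control 1. With spike control scaling let-7c-5p, let-7d-5p and let-7e-5p were all below 0 (−0.82, −0.61 and −1.09). An effect of position was not tested.

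Sequence similarity was set against the shift over the 28 pairs of members measured on both arrays. Pairs share members, so the points are not independent. Spearman's rho between the number of differing bases and the gap in log2 difference was 0.15. let-7e-5p, let-7g-5p and let-7i-5p were not above the negative controls on the DSS array, and over the 10 pairs without them rho was 0.06, with gaps of 0.03 to 0.50. The 4 pairs with 1 differing base had gaps in log2 difference of 0.06 (let-7a-5p and let-7c-5p), 0.19 (let-7b-5p and let-7c-5p), 0.26 (let-7a-5p and let-7f-5p) and 0.56 (let-7a-5p and let-7e-5p). The 8 pairs with 2 differing bases had a median gap of 0.29, the 8 with 3 one of 0.52, and the 6 with 4 one of 0.32. let-7d-5p and let-7i-5p, the pair with 6 differing bases, had a gap of 0.50.

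3 members differ from let-7a-5p (log2 difference 0.41) by 1 base. let-7c-5p, with A19G near the 3′ end, was at 0.47, and let-7f-5p, with G12A in the middle of the guide, at 0.16. let-7e-5p, with U9G just past the seed, was at −0.15, a value that rests on a DSS spot at the level of the negative controls. How far each probe also binds other members was not measured by any spot of these files.

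**Figure D4:**
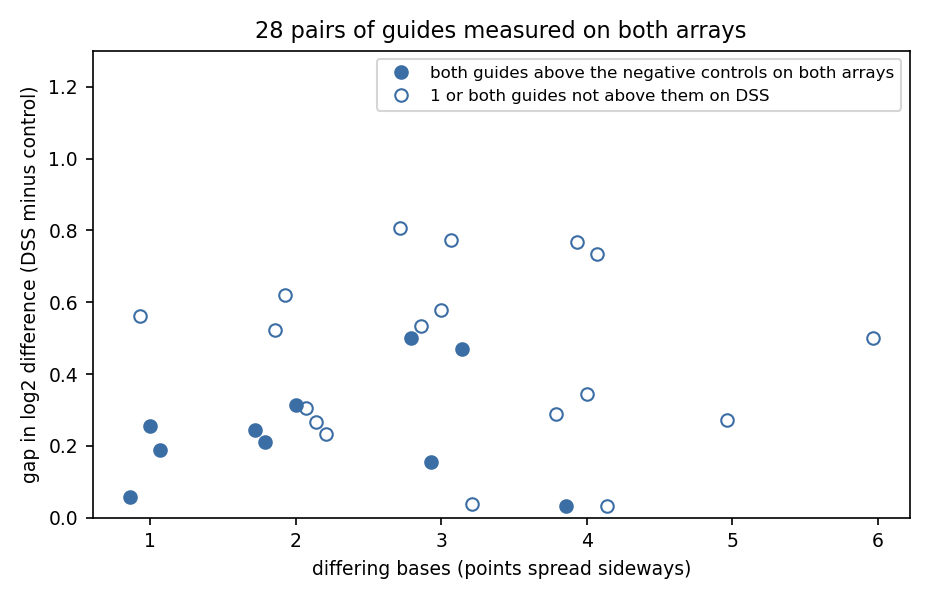
Gap in log2 difference (DSS minus control) between the 2 guides of each pair, against the number of bases at which their sequences differ, for 28 pairs; filled points are the 10 pairs in which both guides lay above the negative controls on both arrays, and open points are the others. The filled points lie between 0.03 and 0.50, and among pairs with 1 differing base the widest gap, 0.56, is the open point of let-7a-5p and let-7e-5p.

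Over the 8 members measured on both arrays Spearman's rho between control intensity and normalised difference was 0.79, and with normexp at offset 0 it was 0.67. With the difference in the authors' deposited table it was 0.10, and 0.64 over the 7 members without let-7i-5p. The points share both arrays, and the control intensity enters both measures.

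Passenger (3p) strands of the same hairpins, which are mostly degraded once the guide is loaded, were largely below the limit. Of 11 probes for 12 such strands, 3 were measured on both arrays and 8 on neither. let-7b-3p read 121.8 (control) and 144.1 (DSS), a normalised difference of −0.09 beside 0.66 for its guide. let-7d-3p read 117.1 and 153.9 (0.17, beside 0.63 for its guide), and let-7f-1-3p read 107.4 and 135.9 (−0.03, beside 0.16). On the DSS array let-7b-3p and let-7f-1-3p lay below the negative control limit of 153.6 and let-7d-3p level with it, and the difference between guide and passenger shifts has no test.

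miRNAs encoded beside let-7 hairpins, from the miR-99/100 and miR-125 families, gave mixed differences. Of 11 probes 5 were measured on both arrays, 3 higher and 2 lower, with a median of 0.10. Over all 995 miRNAs 48.5% were higher, so 3 of 5 is near that share. miR-125b-5p, of the hairpin Mir125b-1, 45114 bases from Mirlet7a-2, and of Mir125b-2, read 183.0 (control) and 278.0 (DSS), a difference of 0.91. miR-100-5p, whose hairpin lies 5211 bases from Mirlet7a-2, passed the limit with control RNA only (103.2 and 129.4), and miR-99a-5p, 656 bases from Mirlet7c-1, with DSS RNA only (99.4 and 134.9). In the let-7e cluster miR-99b-5p went from 828.0 to 194.7, 4.04-fold lower after normalisation. It was the 1 of these 5 past 2-fold, against 1.51% of all 995 miRNAs in either direction. miR-125a-5p, 367 bases from Mirlet7e, was at 0.10 and let-7e-5p at −0.15.

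RefSeq holds 2 further mouse miRNAs with the same bases 2 to 8, and both had a probe. They are shown because they share the seed and are shorter, with 19 and 17 bases where the guides have 22. Past the seed let-7k follows let-7b-5p over its whole length, except at the base next to the seed. miR-1961 starts past the seed as let-7g-5p and let-7i-5p do and then departs from them.
let-7k: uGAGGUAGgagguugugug
miR-1961: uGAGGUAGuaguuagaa
let-7k, which has G at the base after the seed as let-7e-5p does, read 115.8 on the control array and 125.3, below the limit, on the DSS array. miR-1961 was measured on neither array (95.5 and 126.1). let-7j, looked up after its values were seen, carries the family name but GAGGUAU in place of the seed and was measured on neither array (92.4 and 126.0).

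The miRNAs most like the 3 brightest members were those with the nearest pair of normalised values over the 2 arrays. For let-7c-5p these were miR-26a-5p, at a distance of 0.02 on the log2 scale, and miR-192-5p (0.09), an abundant miRNA of gut epithelium. For let-7b-5p they were miR-6901-5p (0.07) and miR-8099 (0.12), and for let-7a-5p miR-7036a-3p (0.08) and miR-3085-3p (0.09). With 2 arrays such nearness is a description of brightness and shift only.

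Marker miRNAs of the cell types the preparation could hold were set beside the guides, as sums of the authors' deposited values over the probes measured on both arrays. These values carry a factor of 0.563 (control) or 0.787 (DSS), which raises every DSS sum against its control sum. The median log2 difference of all 995 miRNAs was 0.21 in these values and −1.02 with spike control scaling. The directions below thus depend on the scaling. The 8 let-7 guides went from 274.0 to 453.9. The gut epithelial list (miR-200 family, miR-192, miR-194, miR-215 and miR-375), of which 8 of 9 were measured on both arrays, went from 531.5 to 753.5. Its normalised differences had a median of 0.33, with 7 higher and 1 lower, against 48.5% higher over all 995 miRNAs, and miR-141-3p was measured on the DSS array only. The leukocyte list went from 28.8 to 109.3, with 3 of 7 measured on both arrays and 3 of these higher. Most of that rise was miR-150-5p, from 7.68 to 63.4, whose control spot (106.3) lay below the negative control limit of 110.5. miR-223-3p (152.1) and miR-342-3p (149.9) lay below that limit on the DSS array (153.6). Of the other members of this list 1, miR-142a-5p, passed the detection limit with DSS RNA alone, and miR-142a-3p, miR-155-5p and miR-146a-5p on neither. The red cell list went from 49.2 to 103.3, with 2 of 3 measured on both arrays, both higher, and miR-144-3p on neither. The smooth muscle and fibroblast list (6 of 7) went from 615.9 to 670.0, with 4 higher and 2 lower and a median normalised difference of 0.05. The endothelial marker miR-126a-3p went from 6.55 to 8.91 and had a normalised difference of −0.06. Epithelial miRNAs were thus present on both arrays, and the part of changed cell proportions in the let-7 values was not tested.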

How the data were processed

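Total RNA of the 2 samples was Hy5-labelled with a miRCURY LNA kit and read in 1 colour, per the labels' protocols. The deposited scanner files hold a median spot intensity and a background intensity for each of 3200 spots, combined from scans at 3 gains per the file headers. The authors' deposited table holds a processed intensity per probe. Its values equalled the spot intensity minus the blank mean (896 blank spots, the 45 highest and 45 lowest left out) times 0.563 (control) or 0.787 (DSS), with a largest deviation of 7.9e-06, and their median was 25 on both arrays. Scale, centring and array of origin are thereby known. No source used here names the tool that made it or the maker of the array.

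The normexp model of limma (limma 3.58.1, R 4.3.3, offset 50, fitted on all spots) was applied to the spot intensities, followed by log2 and quantile normalisation across miRNA probes. The given background value was not subtracted in the main setting, because it followed spot brightness (Spearman's rho 0.72 and 0.63 across spots). Detection used the trimmed blank mean plus 2 SD, and 1 badly flagged probe was dropped. Groups came from the agent in the labels. With 1 array per group no test was run, and a difference counts at 2-fold. The ratio for miR-98-5p sets its normalised DSS value against the lowest value measured on the control array.

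Members and lists were chosen with earlier results of these data known. Named miRNAs are the 9 guides, measured members of the passenger, neighbouring-hairpin, same-seed and cell marker lists, and for each of the 3 members brightest on the control array the 2 nearest other miRNAs. Beyond that rule, list members measured on neither array are named as such, and let-7j was added after its values were seen. Alternatives, 13 planned and 2 added after seeing the data (block medians, negative control limit), changed scaling, background, source of values, detection limit and fold threshold.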

Additional observations from a re-analysis of the deposited data

How the results depend on the processing

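The family median of 0.28 stayed between 0.14 and 0.44 under no scaling, median and 75th percentile scaling, cyclic loess, no background correction, the 3 SD limit, no filter and subtracted block medians. It was 0.49 with offset 0, 0.70 with the blank mean subtracted, 0.67 in the authors' deposited table, 0.47 over the 5 members above the negative controls, 0.024 with the given background value subtracted, and −0.82 after spike control scaling. The negative control limit selects in part on DSS brightness, and let-7e-5p missed it on the DSS array alone. The number of members higher with DSS, 6 of 8, was 0 with spike scaling, where 1 member (let-7e-5p, lower) passed 2-fold, and 5 to 7 otherwise. The number past 2-fold, 0, became 1 with the blank mean subtracted (let-7d-5p) and 2 in the authors' table, and 2 members passed a threshold of 1.5-fold. let-7a-5p, let-7b-5p, let-7c-5p and let-7d-5p were higher in 13 of 14 alternatives each, all but spike scaling. They were above the median of all miRNAs in 14 of 14, and let-7e-5p was lower in 13 of 13. Up to 3 of these alternatives change only the filter and so leave each value as it is. No scaling and scaling to the median, the 75th percentile or the spikes shift all probes of an array alike. Under these settings the distance from the median of all miRNAs cannot differ (0.20 for let-7a-5p in each). The counts are thus not counts of independent checks. let-7g-5p was higher in 4 of 12. The direction of neither let-7e-5p nor let-7g-5p is settled, since their DSS spots were not above the negative controls. The causes were not tested. No paired analysis was possible because each group holds 1 array. Signal over background limits the values of let-7e-5p, let-7g-5p, let-7i-5p and miR-98-5p (DSS spots not above the negative controls) and those of let-7a-5p and let-7b-5p (control spots below the given background value).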
